A study of Mus musculus with 83 samples.

Results

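The colon of 16 mice of 9 months was compared with that of 16 mice of 3 months, the early-to-mid-life step of a lifespan series of 83 mice. The mice were chosen by the age in their labels, and all 16 of each age entered. Every mouse was a C57BL/6J/Ukj male kept solely for aging, and the labels name no treatment and no altered gene, so the groups share strain, sex and housing and differ by age. RNA came from the proximal section of the rinsed colon, with mucosa and muscle wall together, and poly(A) RNA was sequenced in stranded libraries. Libraries were prepared in 3 batches that held 5, 6 and 5 mice of 3 months and 6, 5 and 5 mice of 9 months.

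At 3 months a male mouse is sexually mature but has only just ended its rapid postnatal growth, and at 9 months it is a middle-aged adult. The colon wall holds an epithelium that renews continuously from crypt stem cells into absorptive colonocytes, mucus-filled goblet cells, hormone-releasing enteroendocrine cells and tuft cells. Below it lie a lamina propria rich in plasma cells and macrophages, lymphoid follicles, and muscle layers with the enteric nervous system between them. Imprinted genes of fetal and postnatal growth, such as the Dlk1–Meg3 domain, are known to be switched down as mammalian organs stop growing, while plasma cells accumulate as the gut meets its microbes. In bulk tissue, a lower level from fewer cells of a type and one from less RNA per cell cannot be told apart.

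The libraries of both ages had similar depth. Between 26758538 and 46046256 read pairs were counted per mouse at 3 months and between 25983591 and 56630493 at 9 months, and the totals did not differ by a permutation test (two-sided p = 0.853, 100000 resamples). The mitochondrial genome took 4.01% ± 0.232 of the counts at 3 months and 4.28% ± 0.28 at 9 months (SD, n = 16 each, permutation p = 0.00624), and the 10 most abundant genes took 8.64% ± 0.292 and 9.08% ± 0.303 (permutation p = 0.00026). The part of these shares in the results was not tested. The tissue label was met by its markers, since Muc2, the main mucin of goblet cells, lay between 15062 and 22888 CPM (counts scaled to a common normalized library size) in all 32 mice. Smooth muscle genes summed to between 2755.6 and 10897 CPM at 3 months and between 3463.7 and 11361 CPM at 9 months, so the summed RNA of these genes varied several-fold within both ages.

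Of 18325 genes tested, 1593 or 8.69% differed between 9 and 3 months (edgeR's quasi-likelihood test with library batch as a covariate, Benjamini-Hochberg adjusted p below 0.1). At 9 months 667 genes (3.64%) were higher and 926 (5.05%) were lower. Most changes were small. The median log2 fold change was 0.32 among the genes that rose and -0.18 among those that fell. A change beyond 1.5-fold was seen in 204 genes, 137 of them upward and 67 downward. Protein-coding genes made up 1393 of the 1593, with 529 higher and 864 lower, whereas long intergenic noncoding RNAs (lincRNAs) moved mainly upward, with 60 higher and 13 lower of 593 tested.

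The size of this list rested on a few young mice. At 3 months, mice 5, 10, 13, 15 and 16 had levels of Hspa1a, the inducible Hsp70 chaperone, between 43.3 and 186 CPM, against 4.99 to 11.9 CPM in the other 11 mice of 3 months and 4.13 to 20.3 CPM at 9 months. These 5 mice came from all 3 library batches. Without them 280 genes (1.51%) passed the threshold, 153 higher (0.827%) and 127 lower (0.686%), and 264 of these were among the original 1593, 144 higher and 120 lower. A smaller number of mice also lowers the number of calls, and how much of the drop each of these accounts for was not tested. Leaving out instead the 7 mice with the least smooth muscle RNA (3-month mice 7, 10, 12 and 16 and 9-month mice 4, 6 and 13) left 424 genes (2.3%), 206 higher (1.12%) and 218 lower (1.18%). Mice 10 and 16 of 3 months belong to both sets, so high chaperone RNA and low smooth muscle RNA go together in them. Leaving out mouse 10, 13, 15 or 16 alone left 847 to 903 genes, whereas leaving out any other 1 of the 32 mice left between 1115 and 1936. Among the latter was mouse 5 of 3 months, without which 1779 genes passed. Results below are therefore given with their value in the absence of these 5 mice wherever it ends the call. Counts of list members past the threshold are to be read against all genes tested, of which 8.69% passed, 3.64% higher and 5.05% lower.

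**Figure D1:**
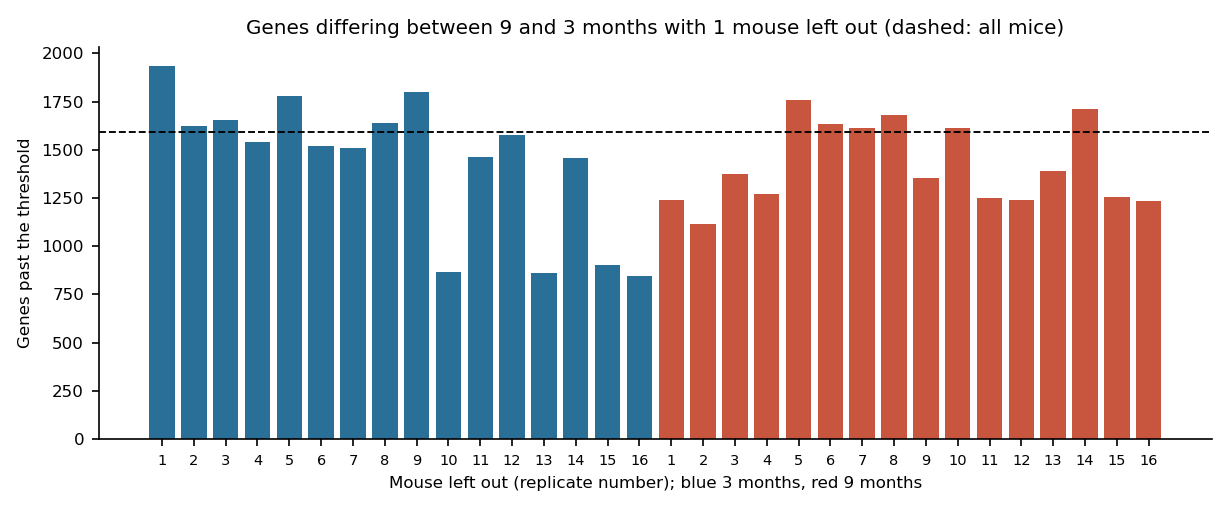
Number of genes past the threshold (adjusted p below 0.1, y axis) when the mouse on the x axis is left out, with 3-month mice in blue and 9-month mice in red and the 1593 genes of all mice as a dashed line. The bars of 3-month mice 10, 13, 15 and 16 stand at 847 to 903 genes, below those of the other 28 mice.

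In all, 11 of 18325 genes (0.06%) separated the ages without overlap, and all 11 also passed the threshold without these 5 mice. Lower in every 9-month mouse were Rps4l, Pex5l, Bhmt2, Rian and Mirg, and higher in every one were Scgb1b3, Scgb2b10, Scgb2b15, Scgb2b20, Vsig2 and Col6a5. The lowest p-value belonged to Rps4l (chromosome 6, 148354656 to 148355598, GRCm38, plus strand), annotated as a transcribed processed pseudogene of the ribosomal protein gene family. Its level was 7.99, 16.2 and 24.4 CPM in the lowest, median and highest mouse of 3 months and 1.40, 3.05 and 5.79 CPM at 9 months, so that the groups lay well apart. The log2 fold change was -2.37 (standard error 0.142, edgeR adjusted p = 1.20e-23), and the mean fell further to 1.44 CPM at 15 months and stayed at 1.47 and 1.25 CPM at 24 and 28 months. Only uniquely mapped reads were counted, and reads that Rps4l shares with its close copies are not in these values.

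Pex5l, which encodes an auxiliary subunit of the HCN pacemaker channels, showed the same shape. It lay at 3.35, 6.23 and 7.80 CPM (lowest, median, highest) at 3 months and at 0.738, 1.44 and 2.20 CPM at 9 months. The log2 fold change was -2.06 (standard error 0.127, edgeR adjusted p = 2.84e-23), and the later ages stayed between 0.701 and 0.788 CPM. Bhmt2, a homocysteine methyltransferase singled out here for its lack of overlap, fell from a mean of 0.495 ± 0.155 CPM to 0.0687 ± 0.0514 CPM (SD, n = 16 each), with a fitted log2 fold change of -2.85 that rests on very few reads at 9 months.

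**Figure D2:**
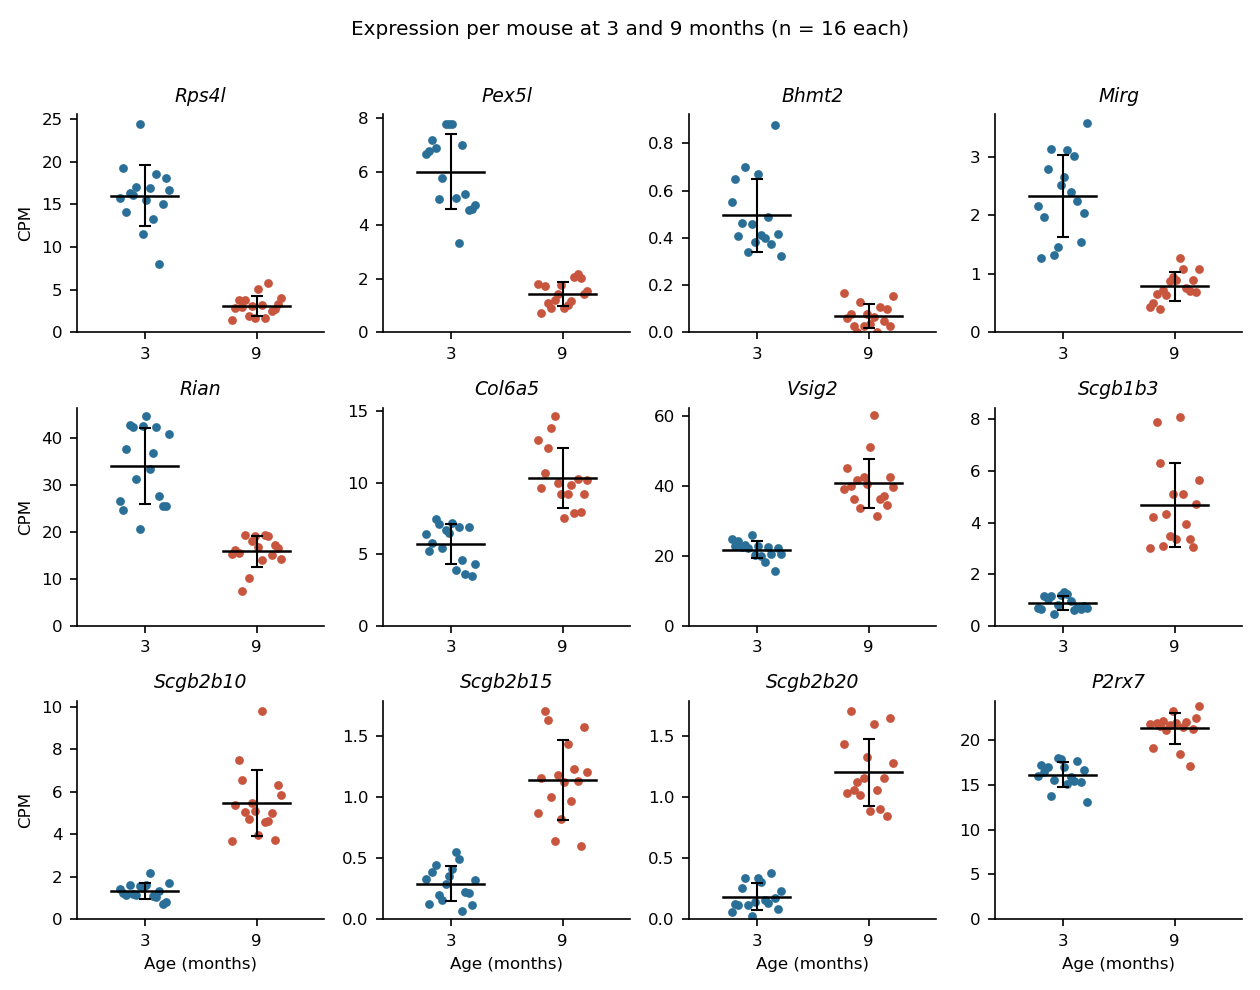
Expression in CPM (y axes from 0) of the 11 genes whose ages do not overlap and of P2rx7, per mouse at 3 months (blue) and 9 months (red), with mean and SD as lines. Rps4l, Pex5l, Bhmt2, Mirg and Rian lie lower in every 9-month mouse, the secretoglobins, Vsig2 and Col6a5 lie higher, and P2rx7 overlaps only at the edge.

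Several of the large rises belonged to a cluster of secretoglobin genes on chromosome 7. Secretoglobins are small secreted proteins, and this group includes the androgen-binding proteins of rodent glands and saliva. Scgb1b3 (31375592 to 31376916, plus strand) had 0.456, 0.778 and 1.31 CPM (lowest, median, highest) at 3 months and 3.00, 4.27 and 8.08 CPM at 9 months, a log2 fold change of 2.39 (standard error 0.157, edgeR adjusted p = 1.32e-21). Scgb2b10 rose by 2.05 on the log2 scale (edgeR adjusted p = 1.36e-18), from 0.704 to 2.18 CPM at 3 months to 3.70 to 9.83 CPM at 9 months. Scgb2b20, Scgb2b15 and Scgb2b7, named after their values were seen, rose by 2.67, 1.97 and 1.27, and Scgb2b7 alone of these 5 overlapped between the ages, by its ends at 0.368 and 0.354 CPM. Scgb3a1 on chromosome 11 had a log2 fold change of 0.02 (edgeR adjusted p = 0.976). The 5 genes are close relatives, so that uniquely mapped reads may be split unevenly among them.

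Vsig2, which encodes an immunoglobulin-domain membrane protein of the gut epithelium, had the smallest p-value of the genes that rose. Its lowest, median and highest levels were 15.8, 22.3 and 26.0 CPM at 3 months and 31.3, 39.8 and 60.1 CPM at 9 months (log2 fold change 0.91, standard error 0.0559, edgeR adjusted p = 3.10e-23). The mean went on to 55.3, 85.2 and 95.6 CPM at 15, 24 and 28 months. P2rx7, the ATP-gated channel that triggers inflammasome activation, rose from 16.1 ± 1.41 to 21.3 ± 1.72 CPM (SD, n = 16 each, edgeR adjusted p = 9.02e-13). Kcnk10, a background potassium channel, rose from 1.33 ± 0.402 to 2.81 ± 0.68 CPM (edgeR adjusted p = 2.12e-11), and Kif26a, a kinesin relative that restrains growth signals in enteric neurons, from 11.3 ± 2.64 to 19.1 ± 3.23 CPM (edgeR adjusted p = 2.49e-11). In all 3 genes every 9-month mouse lay above the 3-month median, and all 3 calls held in the absence of the 5 mice.

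Several other genes with large changes had clear values in single mice. Col6a5, a collagen VI chain, lay between 3.45 and 7.49 CPM at 3 months and between 7.57 and 14.7 CPM at 9 months (log2 fold change 0.86, edgeR adjusted p = 2.34e-07). Cdsn, the adhesion protein corneodesmosin, rose by 0.86 (edgeR adjusted p = 1.01e-08) and Bglap3, an osteocalcin-related gene, by 0.78 (edgeR adjusted p = 4.86e-08), and every 9-month mouse lay above the 3-month median of both. Srd5a2, which converts testosterone to dihydrotestosterone, and Ly6e, a membrane-anchored protein of the Ly6 family, were named after their values were seen and rose by 0.76 and 0.49 (edgeR adjusted p = 4.80e-05 and 3.10e-08). Pnliprp2, a pancreatic lipase relative, varied widely, with 1.70 to 24.6 CPM at 3 months and 2.98 to 74.2 CPM at 9 months (log2 fold change 1.9, edgeR adjusted p = 0.0213), and Pla2g4c, a cytosolic phospholipase, even more so (log2 fold change 1.78, edgeR adjusted p = 0.0809). The call for Pla2g4c was lost in the absence of the 5 mice (edgeR adjusted p = 0.26) and also when single mice of either age were left out. Spp1 (osteopontin), Pbp2 and Serpina3f rose by 0.95, 0.97 and 0.87, and none of these 3 passed the threshold without the 5 mice (edgeR adjusted p = 0.16, 0.16 and 0.12).

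The imprinted growth genes past the threshold were all lower. Of 19 tested, 6 were lower and 0 higher at 9 months (31.6% called, against 8.69% of all genes), 6 of the 19 had positive values, and the median log2 fold change over the list was -0.18, against -0.01 over all genes. Of the 6, 4 lie side by side in the Dlk1–Meg3 domain of chromosome 12, where Dlk1, a Notch-related ligand that holds progenitor cells in an immature state, is expressed from the paternal copy and the noncoding RNAs Meg3, Rian and Mirg, hosts of microRNAs and small nucleolar RNAs, from the maternal copy. Rian had 20.6, 35.1 and 44.6 CPM (lowest, median, highest) at 3 months and 7.49, 16.3 and 19.4 CPM at 9 months, with no overlap (log2 fold change -1.09, edgeR adjusted p = 1.19e-13). Mirg fell from 1.28 to 3.57 CPM to 0.400 to 1.27 CPM (log2 fold change -1.56, edgeR adjusted p = 7.80e-16). Meg3, the most abundant, went from 71.3 ± 17.0 to 39.9 ± 10.4 CPM (edgeR adjusted p = 1.01e-07), and Dlk1 from 2.33 ± 1.09 to 0.795 ± 0.371 CPM (log2 fold change -1.55, edgeR adjusted p = 5.22e-07). Both overlapped between the ages, but in both every 9-month mouse lay below the 3-month median.

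Later values differed among the 4 genes of the domain. From 15 to 28 months the mean of Rian moved from 13.3 to 11.2 CPM and that of Meg3 from 36.3 to 38.0 CPM, while Dlk1 went on down from 0.795 CPM at 9 months to 0.33 CPM at 15 months and 0.186 CPM at 28 months. Outside the domain, Peg3, a paternally expressed zinc finger gene, fell by 0.40 (edgeR adjusted p = 0.0343) and Cdkn1c, a growth-restraining cell cycle inhibitor, by 0.22 (edgeR adjusted p = 0.0623). Without the 5 mice, 5 of the 6 remained past the threshold, all but Cdkn1c. Igf2bp1, a fetal RNA-binding protein, Plag1, a fetal growth transcription factor, and Mycn belong to no list here and were picked after their values were seen, so they add no support to the count above. Their log2 fold changes were -0.60, -0.51 and -0.47 (edgeR adjusted p = 0.00797, 0.0181 and 0.00545), and Plag1 was lost without the 5 mice (edgeR adjusted p = 0.16). Igf2, the imprinted fetal growth factor, lay at or below 0.552 CPM in every mouse and had a log2 fold change of 0.19 (edgeR adjusted p = 0.662).

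The insulin-like growth factor axis, in which the imprinted Igf2 was also counted, showed 4 higher and 0 lower of 17 tested genes (23.5% called, against 8.69% of all genes). The growth factor Igf1 rose from 11.8 ± 2.59 to 14.6 ± 3.17 CPM (edgeR adjusted p = 0.062), its binding protein Igfbp2 from 10.3 ± 5.82 to 14.8 ± 5.39 CPM (edgeR adjusted p = 0.0999), the receptor adaptor Irs2 from 37.4 ± 7.93 to 47.2 ± 8.43 CPM (edgeR adjusted p = 0.0554) and the secreted glycoprotein Stc2 from 32.8 ± 5.33 to 39.2 ± 6.72 CPM (edgeR adjusted p = 0.0217). The ages overlapped in all 4, and none passed the threshold without the 5 mice.

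**Figure D3:**
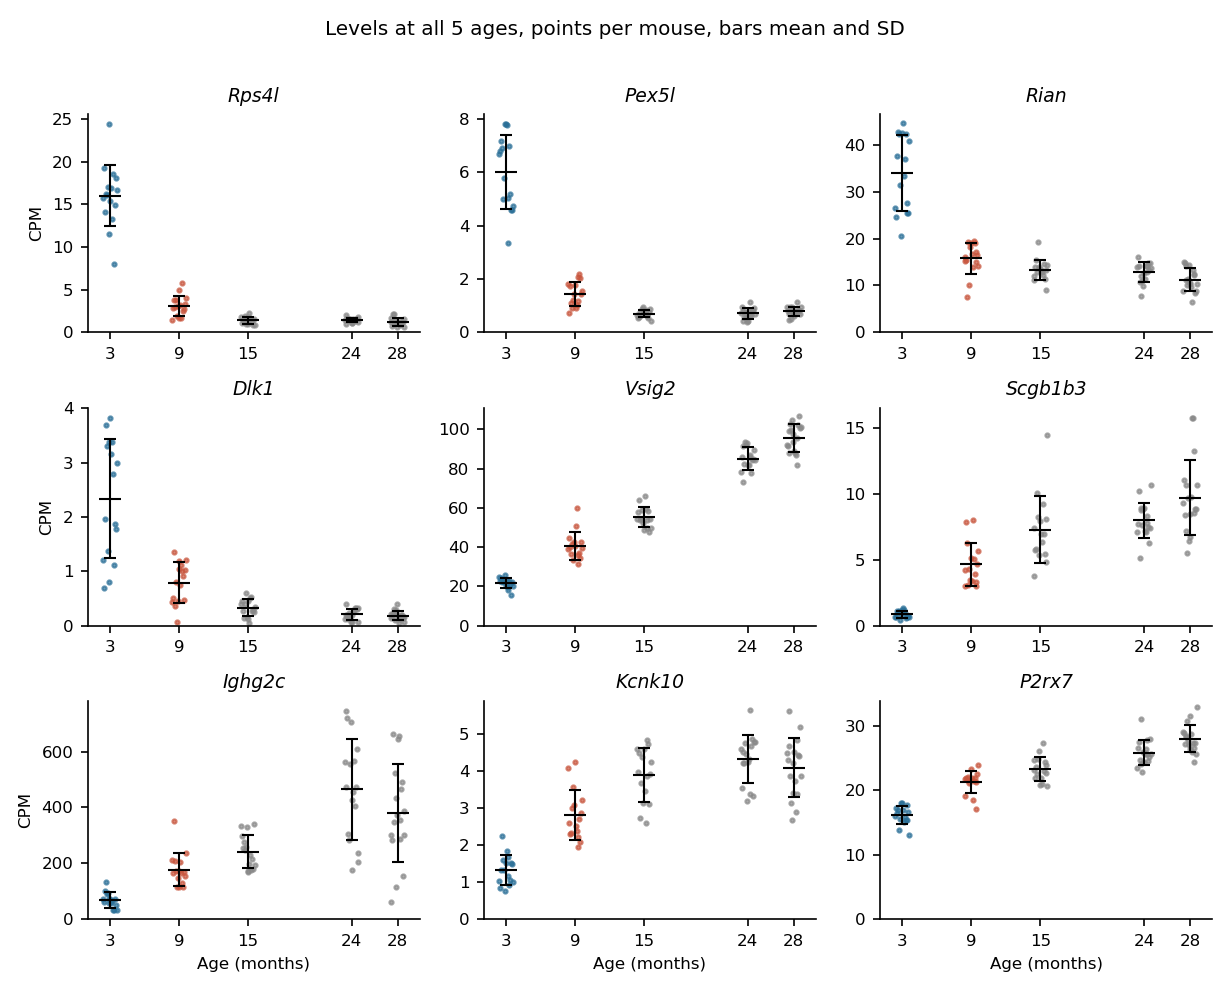
Expression in CPM (y axes from 0) against age in months (x axes) for 9 genes, with points per mouse, mean and SD, 3 months in blue, 9 months in red and the later ages in grey. Rps4l, Pex5l, Rian and Dlk1 are highest at 3 months and lower from 9 months on, while Vsig2, Scgb1b3, Ighg2c, Kcnk10 and P2rx7 lie higher at each later age than at 3 months.

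The largest share of any list with 10 or more members tested fell to heat shock chaperones. These proteins fold damaged or new polypeptides, and heat shock factor switches many of them on within minutes of heat or protein damage. Of 31 tested, 18 were lower and 0 higher at 9 months (58.1% called), with a median log2 fold change of -0.23. The fall of Hspa1a was -2.32 (standard error 0.371, edgeR adjusted p = 7.05e-06) and that of Hspa1b -2.13 (standard error 0.39, edgeR adjusted p = 0.000122). The values per mouse were uneven at 3 months. Mice 5, 10, 13, 15 and 16 of 3 months had 106 to 356 CPM of Hspa1b, the other 11 mice of that age 10.9 to 29.7 CPM and the 9-month mice 9.68 to 61.9 CPM.

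The other chaperones followed the same mice. Hsph1, the Hsp110 nucleotide exchange factor, had 207.5 to 444.1 CPM in the 5 mice, 38.9 to 129 CPM in the other 11 and 41.1 to 136 CPM at 9 months. Hspa8, the constitutive Hsp70, had 1841.6 to 3741.9 CPM in the 5 mice, 806 to 1782 CPM in the other 11 and 936 to 1582 CPM at 9 months, and in Hsp90aa1, Dnaja1 and Chordc1 the 5 mice were also the 5 highest of their age. In Chordc1 they overlapped with the 9-month mice, whose highest value was 88.7 CPM against 87.4 CPM in the lowest of the 5. In 14 of the 18 genes these 5 mice were the 5 highest of the 16, and in the other 4 they held 4 of the 5 highest places. Since the mice were picked by Hspa1a, that pattern is a description. Without them 0 of the 31 genes passed the threshold by edgeR (0 also at an unadjusted p below 0.05; DESeq2 was not run without these mice) and the median of the list was -0.01. The mice were left out for a value of this same list while all 9-month mice were kept, so the loss of these calls is a description too. Chaperones of other compartments, Hspa5 of the endoplasmic reticulum and Hspd1 of mitochondria, were not past the threshold in all mice either (edgeR adjusted p = 0.21 and 0.115).

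**Figure D4:**
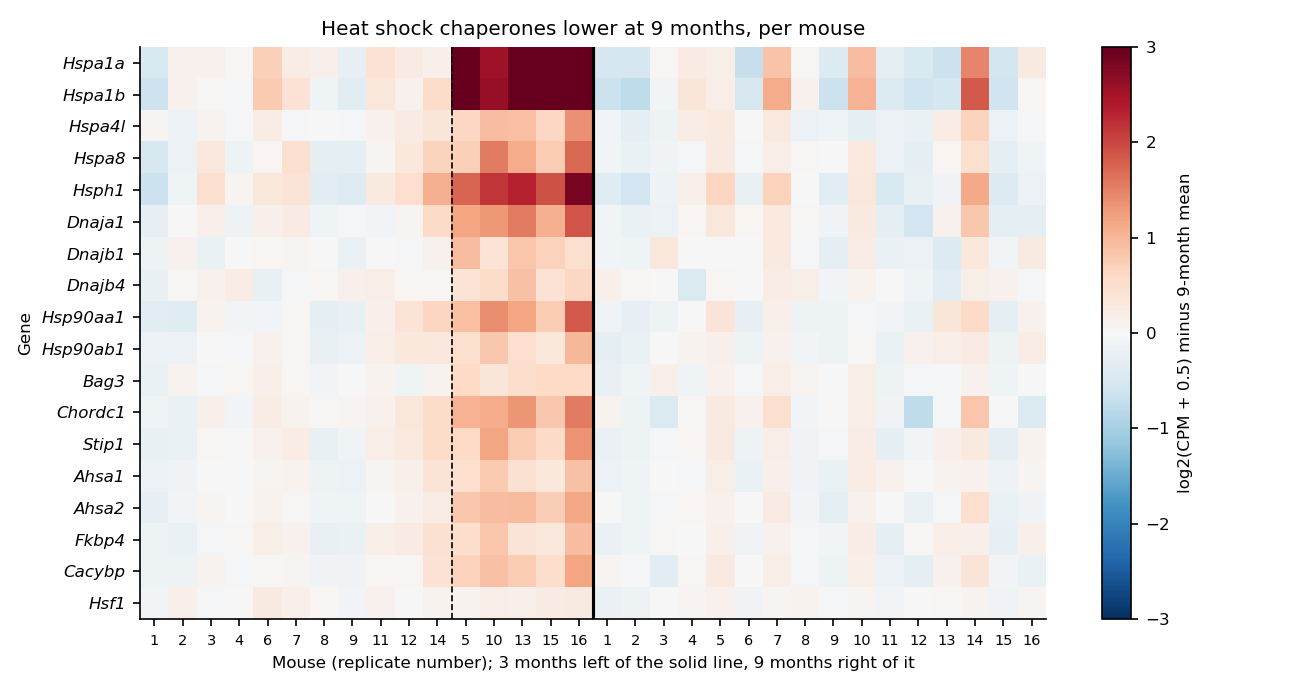
The 18 heat shock genes that were lower at 9 months (rows) in each mouse (columns), coloured by log2(CPM + 0.5) minus the mean of the 9-month mice, with the colour scale ending at 3 in either direction. The 5 columns between the dashed and the solid line, 3-month mice 5, 10, 13, 15 and 16, are red in nearly all rows, while the other 3-month mice resemble the 9-month mice.

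Promoters of these genes were read from RefSeq (GRCm38.p6), as windows of 250 bases before to 50 bases after each start. The heat shock element was searched on both strands as GAA, TTC and GAA in a row with NN between neighbours, and as the reverse complement of that run. Of the 18 genes 14 had a window, and 2 of these held a match, Hsph1 and Chordc1, against 0.662% of all genes with a window. Of the 31 chaperones tested 25 had a window and 5 of these a match, 3 of them in chaperones that were not past the threshold. The matches are shown because these genes were among those that were higher in the 5 mice, with 1 match each in capitals. The window of Chordc1 held 3 matches, and the other 2 overlap the one in capitals.
Hsph1, chr5:149636279-149636308, minus strand: gctgcagaTTCTGGAAAGTTCtcctcagta
Chordc1, chr9:18292255-18292284, plus strand: tgcaaccgGAACGTTCGGGAAaattcctga
A match describes the letters in these windows and does not show that a factor was bound.

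Some genes of the day-night clock were also high in these 5 mice. Of 20 clock genes 3 were lower and 0 higher, the period genes Per1 and Per2 and the deubiquitinase Usp2 (15% lower, against 5.05% of all genes). Per2 lay between 31.2 and 51.9 CPM in the 5 mice, between 9.79 and 25.5 CPM in the other 11 and between 6.84 and 31.9 CPM at 9 months (log2 fold change -0.87 over all mice, edgeR adjusted p = 0.0248). Without the 5 mice none of the 3 passed the threshold, with an edgeR adjusted p of 0.77 for Per2, 0.52 for Per1 and 0.73 for Usp2. Arntl, the core activator of the clock, had a log2 fold change of -0.03 (edgeR adjusted p = 0.931), and Dbp one of 0.23 (edgeR adjusted p = 0.747). The time of day at which each mouse was killed was not used here. Among 29 immediate early genes only Klf2, a factor of endothelium and lymphocytes, passed, with a log2 fold change of -0.43 (edgeR adjusted p = 0.0129, and 0.47 without the 5 mice).

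Of 17 glucocorticoid targets and steroid receptors, 4 were lower and 1 higher (29.4% called, against 8.69% of all genes). Hif3a fell from 7.06 ± 1.19 to 4.89 ± 0.954 CPM (edgeR adjusted p = 0.004) and kept its call without the 5 mice (edgeR adjusted p = 0.0047). Hsd11b2, which inactivates corticosterone in the colon epithelium, Tsc22d3 and Per1 did not keep theirs. Pdk4, the kinase that spares glucose by shutting pyruvate dehydrogenase, was the 1 that rose, from 21.4 ± 7.81 to 35.1 ± 9.99 CPM (edgeR adjusted p = 0.00519), with all 16 mice of 9 months above the 3-month median and an edgeR adjusted p of 0.16 without the 5 mice. Nr3c1, the glucocorticoid receptor, had a log2 fold change of -0.01 (edgeR adjusted p = 0.941).

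Among genes of detoxification, those of phase II rose most often. Phase II enzymes attach glutathione, sugar or sulfate to foreign compounds, and of 41 tested 13 were higher and 0 lower at 9 months (31.7% called, against 3.64% of all genes higher), with a median log2 fold change of 0.13 and positive values in 37. Glutathione S-transferases made up 11 of the 13. Gstp2 went from 34.4 ± 6.48 to 46.3 ± 10 CPM (edgeR adjusted p = 0.000138), Gsta1 from 5.24 ± 1.27 to 6.95 ± 1.51 CPM (edgeR adjusted p = 0.00733), Gstm6 from 10.5 ± 1.43 to 12.6 ± 1.6 CPM (edgeR adjusted p = 0.00303) and the abundant Gstm1 from 227 ± 21.2 to 257 ± 24.6 CPM (edgeR adjusted p = 0.027). The ages overlapped in each of them, and the mean of Gsta1 continued to 7.95, 9.11 and 11.2 CPM at the later ages. Ugt2b35, a glucuronosyltransferase, and Sult5a1, a sulfotransferase, were the other 2. Without the 5 mice 4 genes stayed past the threshold, Gstp2, Gsta1, Gstm6 and Gstm5, and the median was 0.08. Members of the Gsta, Gstm and Gstp groups resemble each other closely, so that their reads can be hard to assign.

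Cytochrome P450 enzymes, which oxidize drugs and steroids, did not move in 1 direction, with 3 higher and 2 lower of 45 tested (11.1% called, against 8.69% of all genes). Cyp2w1, known from colon epithelium and tumours, fell from 6.88 ± 2.50 to 4.26 ± 0.863 CPM (edgeR adjusted p = 0.000989) with every 9-month mouse below the 3-month median, and this call held without the 5 mice. Cyp1b1 rose by 0.76 (edgeR adjusted p = 0.0181) and was lost without them (edgeR adjusted p = 0.11). Cyp26b1, which breaks down retinoic acid, depended on mouse 16 of 9 months with 67.1 CPM, while the other 15 had 1.57 to 23.3 CPM, and its log2 fold change of 1.07 became 0.31 in the absence of that mouse, and the call was also lost without the 5 mice (edgeR adjusted p = 0.36). Of 30 antioxidant genes 2 rose, the peroxiredoxin Prdx6 (log2 fold change 0.23, edgeR adjusted p = 0.0918) and Gclc, the rate-limiting enzyme of glutathione synthesis (0.18, edgeR adjusted p = 0.0849), and neither passed without the 5 mice (edgeR adjusted p = 0.42 and 0.55).

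**Figure D5:**
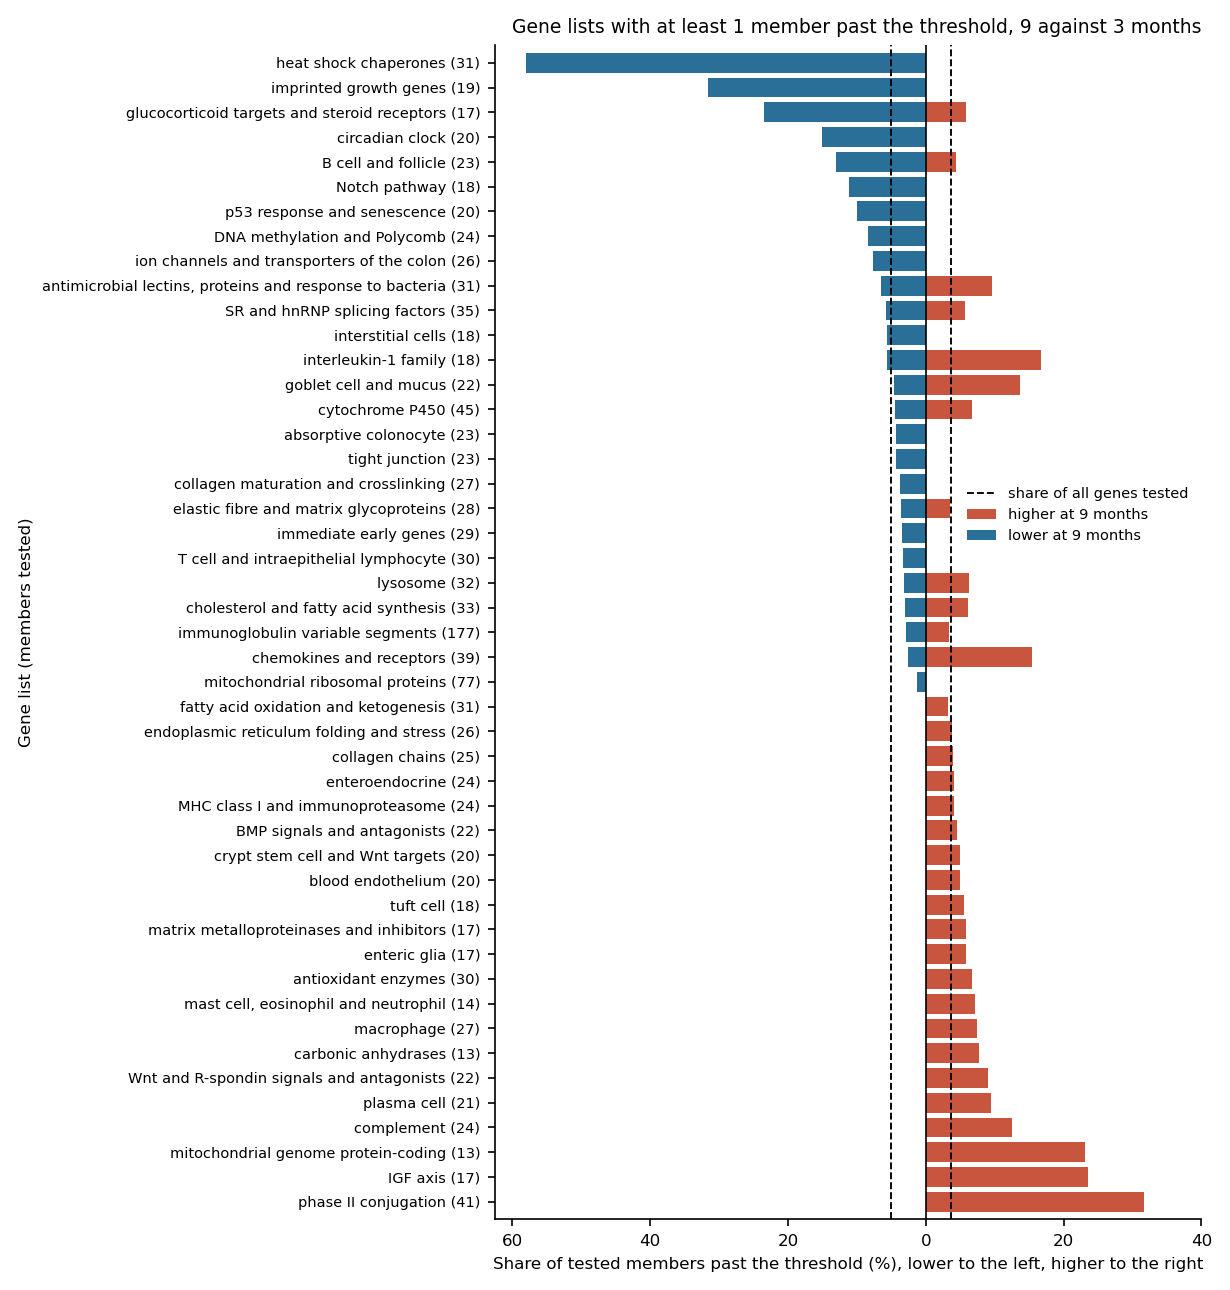
Share of tested members past the threshold in % (x axis, higher at 9 months to the right in red, lower to the left in blue) for each gene list with at least 10 tested members and 1 call, with the number tested in brackets and the share of all genes as dashed lines. Heat shock chaperones reach 58.1% to the left and phase II conjugation 31.7% to the right, all 5 highest mice of Hspa1a included.

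Antibody heavy chains of the IgG2 classes rose. Plasma cells of the gut make mainly IgA, and IgG classes are made in response to microbes and tissue damage. Ighg2c had 31.7, 67.2 and 135 CPM (lowest, median, highest) at 3 months and 113, 167 and 351 CPM at 9 months, with all 16 mice of 9 months above the 3-month median (log2 fold change 1.34, standard error 0.199, edgeR adjusted p = 9.97e-07). The mean reached 242, 465 and 380 CPM at 15, 24 and 28 months. Ighg2b rose from 58.5 ± 13.2 to 121 ± 42.6 CPM (edgeR adjusted p = 0.00212). Both calls held without the 5 mice. Igha and Jchain, the IgA heavy chain and the chain that joins secreted antibodies, had log2 fold changes of 0.37 and 0.30 that did not pass (edgeR adjusted p = 0.296 and 0.345). The plasma cell list as a whole had 2 higher and 0 lower of 21 (9.52% called, near the 8.69% of all genes), with 18 positive values. Its summed level was 3974.3 to 8318.5 CPM at 3 months and 4414.7 to 11726 CPM at 9 months. Of 177 immunoglobulin variable segments 6 were higher and 5 lower, several through a single mouse, and Ighv1-47 was lost without mouse 4 of 3 months. Without the 5 mice 0 were higher and 2 lower of 182 tested.

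B cell and follicle genes leaned the other way. Of 23 tested, 3 were lower and 1 higher (17.4% called, against 8.69% of all genes), 21 had negative values and the median log2 fold change was -0.49. Fcer2a, the low-affinity IgE receptor of mature B cells, was lower (log2 fold change -1.36, edgeR adjusted p = 0.0934), as was Bcl6, the germinal centre factor (-0.25, edgeR adjusted p = 0.0813), and neither passed without the 5 mice (edgeR adjusted p = 0.12 and 0.19). The defining marker Ms4a1 had a value of -0.71 that did not pass (edgeR adjusted p = 0.269), and its range shows the spread, with 0.645 to 17.3 CPM of Ms4a1 at 3 months and 1.26 to 13.3 CPM at 9 months. The number of follicles in each tissue sample is not known here, and its part in these values was not tested. Cxcl13, the chemokine that gathers B cells into follicles, rose from 8.08 ± 2.66 to 11.6 ± 2.45 CPM (edgeR adjusted p = 0.0154), with an edgeR adjusted p of 0.28 without the 5 mice.

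Of 27 macrophage genes 2 were higher and 0 lower (7.41% called, against 8.69% of all genes), with a median log2 fold change of 0.00 over the list. The 2 were the C-type lectins Cd209f and Cd209b that bind microbial sugars. Cd209f went from 0.299, 0.976 and 1.93 CPM (lowest, median, highest) to 1.24, 1.72 and 3.52 CPM (log2 fold change 0.94, edgeR adjusted p = 0.00152), with all 16 mice of 9 months above the 3-month median, and this call held without the 5 mice, whereas that of Cd209b was lost (edgeR adjusted p = 0.29). Complement components C6 and C7 of the membrane attack complex and the complement receptor Vsig4 rose by 0.53, 0.61 and 0.70 (edgeR adjusted p = 0.0324, 0.0217 and 0.0959), 3 of 24 with 0 lower (12.5% called). Of 39 chemokines and receptors 6 rose and 1 fell (17.9% called). Among those that rose were Ccl8, Cxcl12 and Cxcl14, while Ccr7, the receptor that guides cells to lymphoid tissue, fell by 0.60 (edgeR adjusted p = 0.0969). None of these complement or chemokine genes passed without the 5 mice. In the interleukin-1 family, Il18rap, the accessory chain of the interleukin-18 receptor, rose from 2.36 ± 0.536 to 3.55 ± 0.622 CPM (edgeR adjusted p = 0.00141, and 0.064 without the 5 mice). Of the 18 genes tested 2 more were higher and 1 lower (22.2% of the list called), none of which passed without them. Prg2, an eosinophil granule protein, rose by 0.74 (edgeR adjusted p = 0.0206, and 0.25 without the 5 mice), the 1 call among 14 mast cell, eosinophil and neutrophil genes.

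Interferon-stimulated genes had 0 calls of 41 by edgeR and by DESeq2, with 0 at an unadjusted p below 0.05, and MHC class II genes had 0 of 11 by both, with 1 at an unadjusted p below 0.05. T cell and intraepithelial lymphocyte genes had 0 higher and 1 lower of 30, the natural killer receptor Klrd1 (log2 fold change -0.32, edgeR adjusted p = 0.0799, and 0.12 without the 5 mice).

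Among antimicrobial lectins, 2 were lower, and both rested on a pair of mice. Reg3b and Reg3g, secreted C-type lectins that kill bacteria at the mucosal surface, had log2 fold changes of -1.97 and -1.32 (edgeR adjusted p = 0.013 and 0.036). Mouse 14 of 3 months had 9697.2 CPM of Reg3b and mouse 6 had 2111.4 CPM, while the other 14 mice of that age lay between 133 and 673 CPM and the 9-month mice between 65.7 and 688 CPM. Without mice 6 and 14 the log2 fold change of Reg3b was -0.40 (edgeR adjusted p = 0.63) and that of Reg3g 0.03 (edgeR adjusted p = 0.97). Clca4b, a chloride channel accessory protein, also rested on mouse 14, which had 156 CPM against 4.26 to 19.8 CPM in the other 15, and its log2 fold change of -1.35 became -0.28 (edgeR adjusted p = 0.435) without it. In the same list of 31, of which 16.1% were called, Slpi, Sprr1a and Sprr2a3 rose by 0.42, 0.60 and 0.30 (edgeR adjusted p = 0.0949, 0.0401 and 0.0513), and all 3 missed the threshold without the 5 mice.

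Epithelial lists differed in their share of called genes. In the goblet cell list 3 of 22 rose and 1 fell (18.2% called, against 8.69% of all genes). Tuft cell, enteroendocrine and absorptive colonocyte genes lay below the share of all genes, with 5.56%, 4.17% and 4.35% called. Spink4, a goblet cell peptide, went from 338 ± 77.1 to 451 ± 118 CPM (edgeR adjusted p = 0.0129) and kept its call without the 5 mice, while Agr2, the disulfide isomerase that folds mucin, rose by 0.21 (edgeR adjusted p = 0.0542) and Bcas1 by 0.16 (edgeR adjusted p = 0.0671), and both were lost without them (edgeR adjusted p = 0.38 and 0.32). Muc1, a membrane mucin, fell by 0.40 (edgeR adjusted p = 0.0992), a call that was lost in 27 of the 32 fits with 1 mouse left out. Without mouse 14 of 3 months its log2 fold change was -0.29 (edgeR adjusted p = 0.246). Muc2 had a log2 fold change of 0.02 (edgeR adjusted p = 0.904). Gnat3, the taste G protein of tuft cells, rose by 0.42 (edgeR adjusted p = 0.0243), 1 of 18 tuft genes. Chga, the granule protein of enteroendocrine cells, rose by 0.24 (edgeR adjusted p = 0.0746, and 0.48 without the 5 mice), 1 of 24. In absorptive colonocytes the brush border protease Mep1a fell by 0.20 (edgeR adjusted p = 0.04), 1 of 23, and the junction protein Cgn fell from 197 ± 27.6 to 166 ± 13.7 CPM (edgeR adjusted p = 0.00124), 1 of 23 tight junction genes, but neither passed without the 5 mice. Among 26 ion channels and transporters 2 fell, Best2 and the sodium pump subunit Atp1b1, and neither passed without them.

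Crypt and growth signals gave few calls. The stem cell gene Lgr5 had a log2 fold change of -0.11 (edgeR adjusted p = 0.581), and Sp5, a Wnt target, was the 1 of 20 crypt genes past the threshold (0.39, edgeR adjusted p = 0.0511). Cell cycle genes had 0 calls of 33, intestinal transcription factors 0 of 24 and Hox genes, which keep position along the gut, 0 of 31, by edgeR and by DESeq2, with 2, 5 and 3 at an unadjusted edgeR p below 0.05. Of 22 Wnt and R-spondin genes, Wnt5a and Sfrp4 rose. In the Notch pathway Notch1 and its target Nrarp fell by 0.22 and 0.27 (edgeR adjusted p = 0.0275 and 0.0598), 2 of 18, and among 22 BMP genes the antagonist Fst rose by 0.57 (edgeR adjusted p = 0.0219). None of these calls held without the 5 mice. Kremen2, a receptor that dampens Wnt signals, was lower in every 9-month mouse than the 3-month median, with 12.5 ± 2.47 and 7.22 ± 1.64 CPM (log2 fold change -0.79, edgeR adjusted p = 4.04e-07, and 0.0002 without the 5 mice), and it went on down to 2.35 CPM at 28 months. It was named after its values were seen, as were Aldh1l1, a folate enzyme (34.8 ± 5.84 to 21.2 ± 3.80 CPM, edgeR adjusted p = 5.25e-08), Ceacam10, an adhesion molecule relative (70.4 ± 9.78 to 108 ± 14.8 CPM, edgeR adjusted p = 2.49e-09), and Enpp6, a choline phosphodiesterase (2.55 ± 0.294 to 3.88 ± 0.401 CPM, edgeR adjusted p = 9.75e-10). These 4 calls held without the 5 mice.

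Several lists of housekeeping machinery gave 0 calls, while mitochondrial ribosomal proteins had 0 higher and 1 lower of 77, which was lost without the 5 mice. Cytosolic ribosomal proteins had 0 of 82, the proteasome 0 of 35 and the nuclear genes of the respiratory chain 0 of 75, by edgeR and by DESeq2, with 0, 1 and 2 at an unadjusted edgeR p below 0.05, although 67 of the last had positive values with a median log2 fold change of 0.03. Of the 13 protein-coding genes of the mitochondrial genome, 3 were higher (23.1%, against 3.64% of all genes) and 12 had positive values, with mt-Nd1 from 4717 ± 234 to 5238 ± 439 CPM (edgeR adjusted p = 0.0206), mt-Cytb (log2 fold change 0.11, edgeR adjusted p = 0.0916) and mt-Nd4l (0.85, edgeR adjusted p = 0.0927), and 0 passed without the 5 mice. Fatty acid oxidation and ketogenesis had 1 call of 31, Pdk4, which was lost without them, while Acaa1b, a peroxisomal thiolase, was then the 1 call (edgeR adjusted p = 0.099, and 0.121 with all mice). In cholesterol and fatty acid synthesis 2 of 33 rose and 1 fell, with Insig1, the sterol feedback protein, at 0.44 (edgeR adjusted p = 0.0914), and 0 of the list passed without the 5 mice (edgeR adjusted p = 0.46 for Insig1).

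Other lists of regulators and organelles had 1 to 4 calls each. Of 24 DNA methylation and Polycomb genes 2 fell, among them the Polycomb cofactor Jarid2 by 0.12 (edgeR adjusted p = 0.0509). Of 20 genes of the p53 response and senescence 2 fell, the stress sensor Sesn2 by 0.26 and the nuclease Aen by 0.27. Of 35 splicing factors 2 rose and 2 fell (11.4% called, against 8.69% of all genes), with the cold-inducible RNA-binding protein Cirbp higher by 0.28 (edgeR adjusted p = 0.0888) and the splicing activator Tra2a lower by 0.20 (edgeR adjusted p = 0.0635). In the lysosome list the cathepsins Ctsh and Ctsz rose by 0.17 and 0.19 and Ctss fell by 0.11, 3 of 32. Trib3, a pseudokinase of the stress response, was the 1 of 26 endoplasmic reticulum genes past the threshold (log2 fold change 0.43, edgeR adjusted p = 0.0524), and Dpp4, a peptidase of fibroblasts and epithelium, was the 1 of 18 interstitial cell genes (-0.13, edgeR adjusted p = 0.0451). Without the 5 mice only Dpp4 of these passed.

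The muscle wall, nerves and matrix gave few calls. Smooth muscle genes had 0 calls of 24 with 22 positive values, and Actg2 and Myh11 had log2 fold changes of 0.29 and 0.16 (edgeR adjusted p = 0.368 and 0.61). Enteric neuron genes had 0 of 27, and neither of these lists had a gene past the threshold by DESeq2 or at an unadjusted edgeR p below 0.05, while enteric glia had 1 of 17 by edgeR. Collagen chains had 1 of 25, the Col6a5 described above, with Col1a1 and Col1a2 at -0.14 and -0.06 (edgeR adjusted p = 0.549 and 0.817). Eln (elastin) fell by 0.32 (edgeR adjusted p = 0.0608) and Efemp1, a fibulin of elastic fibres, rose by 0.30 (edgeR adjusted p = 0.0462), 2 of 28 in their list, and the gelatinase Mmp9 rose by 0.56 (edgeR adjusted p = 0.0179). Vwf, the clotting factor of endothelium, rose from 19 ± 1.9 to 23.1 ± 2.70 CPM (edgeR adjusted p = 0.0116), 1 of 20. None of these but Col6a5 passed without the 5 mice.

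Markers of neighbouring tissues were examined beside these results. The summed exocrine pancreas list was 63.1 to 105 CPM at 3 months and 74.7 to 118 CPM at 9 months, with all 16 mice of 9 months above the 3-month median, while Amy2a5, pancreatic amylase, had 0 counts in all 32 mice. Clps (colipase) of that list rose from 17.5 ± 5.43 to 26.9 ± 10.1 CPM (edgeR adjusted p = 0.0741, and 0.33 without the 5 mice), 1 of 4 tested. In that list the 1 call without the 5 mice was Cela1, an elastase (log2 fold change 0.22, edgeR adjusted p = 0.094), which had 57.6 ± 7.9 and 62.8 ± 5.58 CPM over all mice (edgeR adjusted p = 0.233). The erythroid list summed to 5.64 to 21.5 CPM at 3 months and 13.1 to 31.1 CPM at 9 months, and Hbb-bt of haemoglobin rose by 0.76 (edgeR adjusted p = 0.0715, and 0.29 without the 5 mice). Squamous genes never exceeded a sum of 4.77 CPM. By edgeR, adipocyte genes had 0 of 15, mesothelium 0 of 7, skeletal muscle 0 of 7, pericytes 0 of 8 and lymphatic endothelium 0 of 10, with 0, 0, 2, 1 and 1 at an unadjusted p below 0.05, and DESeq2 called 1 of these genes, in skeletal muscle. The part of blood or neighbouring tissue in the results above was not tested.

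Gene families were counted by symbol. Zinc finger proteins, many of them repressors of transcription, had 34 lower and 10 higher of 429, or 10.3% called against 8.69% of all genes, and 6 and 1 without the 5 mice. Zfp783 fell by 0.54 (edgeR adjusted p = 2.89e-05) and Zfp37 by 0.36 (edgeR adjusted p = 0.000426). Solute carriers split into 14 higher and 15 lower of 268 (10.8% called), and 3 and 2 without the 5 mice, with the nucleoside transporter Slc28a2 down by 0.47 (edgeR adjusted p = 0.000418) and the betaine transporter Slc6a12 up by 0.69 (edgeR adjusted p = 0.00294). Of 17 keratins, Krt23 rose by 0.46 (edgeR adjusted p = 0.000418) and 2 fell, among them Krt14 of stratified epithelium at 0.408 ± 0.102 and 0.24 ± 0.0748 CPM, and both falls were lost without the 5 mice (edgeR adjusted p = 0.14 for Krt14). Genes with only a Rik name had 58 higher and 20 lower of 867 (9% called), and those with a Gm number 67 higher and 31 lower of 1840 (5.33% called), against 8.69% of all genes. Without the 5 mice these became 17 and 2 of 880 and 15 and 7 of 1919. Of the Rik genes, the smallest p-value was that of 0610040F04Rik, which rose by 1.23 (standard error 0.0986, edgeR adjusted p = 4.31e-17).

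Whether these genes kept moving was read from 24 against 15 months, a comparison that shares no mice with 9 against 3 months, although mice of all ages entered the fit and so shaped its filter, spread and batch terms. Of the 667 genes higher at 9 months, 103 (15.4%) were again higher at 24 months and 32 (4.8%) were lower, where 6.28% of all genes were higher and 7.24% lower in that comparison. Of the 926 genes lower at 9 months, 156 (16.8%) were lower and 22 (2.38%) higher. Among the genes that stayed past the threshold without the 5 mice, 36 of 144 risers were again higher and 7 lower, and 21 of 120 fallers were again lower and 4 higher. From 15 to 24 months 66.4% of the risers and 25.5% of the fallers had positive values, against 50.5% of all genes, and among the genes that stayed past the threshold without the 5 mice these shares were 63.9% and 43.3%. From 24 to 28 months the shares were 57.3% of the risers and 44.7% of the fallers, against 47.8% of all genes, and 64 risers (9.6%) were again higher with 52 (7.8%) lower, where 5.66% of all genes were higher and 6.01% lower. Of the fallers, 46 (4.97%) were lower and 30 (3.24%) higher in that interval. Among the genes that stayed past the threshold without the 5 mice, 18 of 144 risers (12.5%) were again higher and 14 (9.72%) lower from 24 to 28 months, and 14 of 120 fallers (11.7%) were again lower and 4 (3.33%) higher. Vsig2, Ighg2c and Kremen2 are genes that went on in their direction between the means of 15 and 24 months, while Rps4l, Pex5l and Bglap3 had means at 24 months close to those at 15 months.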

How the data were processed

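The authors removed adapters with cutadapt 2.8, filtered by quality with PrinSeq Lite, mapped to GRCm38 (HISAT2 2.1.0), kept uniquely mapped reads with SAMtools 1.9 and assigned properly paired reads to genes by strand with featureCounts (Subread 2.0.1), per the study's methods and processing notes. The deposited values are raw counts of read pairs for 37764 genes, not normalized and not pooled.

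Here, all 83 mice entered a fit in edgeR 4.0.16 (R 4.3.3) (filterByExpr by age, TMM, quasi-likelihood model with age and library batch, 9 minus 3 months, Benjamini-Hochberg adjustment over 18325 genes, threshold 0.1). CPM used TMM library sizes. DESeq2 1.42.0, the tool of the study, was an alternative. Python 3.11.15 with numpy 2.4.6, scipy 1.17.1 and pandas 2.3.3 made the tables and permutation tests. Positions and gene types were read from GENCODE's GRCm38 gene models, older than the release used for counting, which held 37652 of the genes. For this comparison, counts were simulated as independent draws per gene and mouse, with no batch effect and no group of mice deviating together. Changed genes were drawn only from those above a minimum mean count. Of these, with 18235 genes past the filter, the fit recovered 47 of 50 with a log2 change of 0.5 and 31 of 50 with one of 0.25. There were 10 unchanged genes among 181 calls. These rates do not cover calls that rest on a few mice, as many do in the real counts.

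In every one of the 120 pairs of mice of each age, the difference exceeded counting noise at least 11.8-fold. The labels give 1 sample per replicate number, so p-values measure spread between mice. For edgeR this spread was estimated from all 83 mice of the fit, the later ages included, and not from the mice of 3 and 9 months alone. A fit of only the mice of 3 and 9 months called 901 genes, against 1593 in the main fit.

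Named genes are the 15 largest rises and falls among called genes whose mean reached 1 CPM and whose direction was the same in all 3 batches (antibody segments, Gm and Rik genes set apart), the 10 smallest p-values, and in each list the first 2 members and up to 6 called members, with the highest-expressed members in lists of other cell types. Hsp90aa1, Hspd1, Dbp, Nr3c1, Igha, Ms4a1, Ccr7, Myh11, Ugt2b35, Sult5a1 and Acaa1b were named outside this rule, after their values were seen. Members and lists were chosen with earlier results of these data known. Other settings are given in the closing section. The methylation data were not analysed here. A few members of the lists are not reported here.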

Additional observations from a re-analysis of the deposited data

How the results depend on the processing

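The 1593 genes (667 higher, 926 lower) became 882 (421, 461) with no filter on low counts, 901 (442, 459) in a fit of only the mice of 3 and 9 months, and 759 (304, 455) at an adjusted p below 0.05. Within a single library batch they became 25 (15, 10), 25 (14, 11) and 13 (7, 6) in batches 1, 2 and 3, where each age had 5 or 6 mice. Chosen after seeing the data, leaving out the 5 mice of 3 months with the highest Hspa1a gave 280 (153, 127), and leaving out the 7 mice with the least smooth muscle RNA gave 424 (206, 218). Leaving out each mouse in turn gave 847 to 1936 genes, 410 to 889 higher and 437 to 1047 lower, and 75 of 193 named genes past the threshold lost their call in at least 1 of these fits. DESeq2 gave 1675 genes, 1557 of them shared. Other size factors, a mean CPM minimum, no batch term and covariates for smooth muscle, B cells or depth kept the count within 1.5 times. With the replicate number as a block the count was 1507 (638, 869), and 22 of the 193 named genes were lost. The numbers are not shown to pair the mice, since same-numbered mice deviated together with a median r of 0.0029, above 0.1 in 4 of 16 pairs. Signs turned in 2 named genes, Hspa1b at 0.0596 without the 5 mice and Reg3g at 0.0339 without mice 6 and 14 of 3 months. The cause of these shifts was not tested beyond the values given above.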
